A study of Mus musculus with 4 samples.

Results

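Integrins are receptors made of 1 alpha and 1 beta chain that hold cells to extracellular matrix and to other cells. The genes described here are the 9 integrin subunits Itgam, Itgb2, Itgb5, Itgav, Itga6, Itga9, Itgb1, Itga4 and Itgal, taken by symbol from a table of 28692 genes. The symbols fall on 10 rows, because Itgam occurs with a pair of identifiers. With 18 further subunits they make up a list of 27 integrin genes. Libraries of single cells were made from the cortex and hippocampus of 4 male C57BL/6J mice at 90 days of age, 1 library per mouse, and all 4 form 1 group (cold Dounce, PBS). Each mouse had been given phosphate-buffered saline (PBS) by tail vein 24 hours before death per the labels, an interval for which the study's methods state another length, and carried no disease model or transgene in the labels. The tissue was homogenised mechanically on ice, and live cells double-positive for CD45 and CD11b were sorted. CD11b is the protein of Itgam, so the gate selected for it, and the sort bears directly on Itgam and on its partner Itgb2.

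The chains of this family combine in known ways. Itgb2 is the common beta chain of leukocyte integrins, and pairs with Itgam (together complement receptor 3, also called Mac-1), with Itgal (LFA-1, which binds ICAM-1) and with Itgax. Itgb1 pairs with Itga6 to bind laminin, with Itga4 (VLA-4, which binds VCAM-1 and fibronectin and serves the entry of blood leukocytes into tissue), with Itga9 and with Itgav. Itgb5 pairs with Itgav, and the dimer binds vitronectin and takes part in the uptake of dying cells and in the activation of TGF-beta. Microglia, the resident macrophages of the brain parenchyma, are known for Itgam and Itgb5, while Itga4 and Itgal are known from monocytes, lymphocytes and dendritic cells.

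Counts were unique molecular identifiers (UMIs, each standing for 1 captured transcript) from 3′ ends. Levels are given as CPM, the UMIs of a gene per 1000000 UMIs of the cell class. A 3′ tag is counted once per molecule and does not grow with transcript length, so levels were compared between genes without division by length, although capture may differ from gene to gene. Of 13138 barcodes, 13002 cells passed the limits of 400 genes or more and no more than 10% of UMIs from mitochondrial genes. Among these, 67 cells held 10 or more UMIs of Cd74, H2-Aa, H2-Ab1 and H2-Eb1 together and are called MHC class II-high (10, 12, 7 and 38 in replicates 1 to 4). Microglia numbered 12904 (3553, 3677, 2565 and 3109), and held fewer MHC class II UMIs, at least 3 UMIs of 8 microglial markers and more of these than of border macrophage, monocyte and dendritic markers. The remaining 31 cells fell in neither class.

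Microglial markers were high in the microglia, and the MHC class II-high cells were mixed. The 8 microglial markers together stood at 22069 to 22973 CPM in microglia and at 2479 to 10063 CPM in MHC class II-high cells. Monocyte markers ran from 987 to 4629 CPM in MHC class II-high cells against 70.4 to 84.1 CPM in microglia, border macrophage markers from 365 to 1262 against 5.44 to 57.9, and dendritic markers from 126 to 1317 against 7.15 to 16.4. In 34 of the 67 cells these other markers outnumbered the microglial ones, in 33 they did not, and 14 cells lay within 2 UMIs of that line. In MHC class II-high cells Pf4 gave 47.3% of the border macrophage UMIs and Lyve1 had none. Cd209a gave 47.6% of the dendritic UMIs there, and Xcr1 had none. In microglia Klrd1 gave 78.8% of the dendritic UMIs. The 5 neutrophil markers were at 0 in both classes. The MHC class II-high sums were shallow (27434 to 141346 UMIs per library, against 5800257 to 11203714 for microglia), so that 1 UMI was worth 7.07 to 36.5 CPM there. The median cell had 3288 UMIs in the MHC class II-high class and 2429 in microglia. Immediate early genes stood apart in replicate 4, at 2640 CPM in its microglia against 1015 to 1173 CPM in the others, and at 2667 against 620 to 1220 CPM in MHC class II-high cells. The study's methods describe a sorter clog and added time at room temperature for 1 animal of this experiment. Its supplement calls this animal Sample 4, the last one sorted, and reports cells with its ex vivo activation signature almost only there. The labels do not tie that name to a library. There were 84 barcodes that each occurred in 2 libraries, spread over all 4 libraries (32 to 52 per library). The barcode of 1 MHC class II-high cell was among them.

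All members lie on the forward strand of GRCm38 and are protein-coding (GENCODE M21). The most abundant, Itgb5 (ENSMUSG00000022817), spans chromosome 16 from 33829665 to 33949338. Itgb2 (ENSMUSG00000000290) lies on chromosome 10 from 77530252 to 77565708, and Itgb1 (ENSMUSG00000025809) on chromosome 8 from 128685654 to 128733200. Of the alpha chains, Itga6 (71745616 to 71858416), Itga4 (79255426 to 79333123) and Itgav (83724397 to 83806916) share chromosome 2. Itga9 lies on chromosome 9 from 118606690 to 118901003. Itgal (127296260 to 127335138) and Itgam (128062640 to 128118491) both lie on chromosome 7. The second row with the symbol Itgam, ENSMUSG00000108596, is named Gm49368 in GENCODE M21, starts at 128062683 and ends at 128128160, and shares 3450 exonic bases (68.7%) with Itgam. None of the shared bases lie in the last exonic block of Itgam, which spans 1186 bases and is the stretch a 3′ assay reads most. The second row held 7.77 CPM in microglia and 0 UMIs in MHC class II-high cells, and Itgam below means ENSMUSG00000030786.

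The stretches before the start sites are given for 3 members, chosen for their patterns in these data. Itgam had UMIs in every library of both classes, and its difference between them did not pass the test below. It was still lower in the MHC class II-high cells of 4 of 4 libraries. Itgb5 passed that test as lower in MHC class II-high cells, and Itga4 was nearly absent from microglia. The stretches are RefSeq sequences on GRCm38.p6, forward strand, of the 250 bases before the annotated start. RefSeq entries matched 6 of the 9 members (Itgam, Itgb5, Itgav, Itga9, Itgb1 and Itga4). Capitals mark GAGGAA or its reverse complement TTCCTC, the purine-rich core that PU.1, a transcription factor of myeloid cells, is known to bind. The first stretch is chr7:128062390-128062639, the second chr16:33829415-33829664 and the third chr2:79255176-79255425.
Itgam: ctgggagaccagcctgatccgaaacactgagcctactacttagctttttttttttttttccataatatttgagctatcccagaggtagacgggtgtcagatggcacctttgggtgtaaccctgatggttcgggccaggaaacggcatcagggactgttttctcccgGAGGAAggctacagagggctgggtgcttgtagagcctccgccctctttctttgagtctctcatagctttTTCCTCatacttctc
Itgb5: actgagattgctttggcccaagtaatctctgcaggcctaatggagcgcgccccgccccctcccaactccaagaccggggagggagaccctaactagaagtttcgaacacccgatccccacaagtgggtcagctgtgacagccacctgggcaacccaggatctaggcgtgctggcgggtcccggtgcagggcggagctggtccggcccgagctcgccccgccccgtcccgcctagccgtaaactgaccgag
Itga4: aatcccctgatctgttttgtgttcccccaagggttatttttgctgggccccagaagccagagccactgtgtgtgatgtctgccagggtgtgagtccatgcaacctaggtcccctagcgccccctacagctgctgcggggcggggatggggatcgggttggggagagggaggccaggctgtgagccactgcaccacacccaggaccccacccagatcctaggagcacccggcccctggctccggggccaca
The Itgam stretch holds the letters once on each strand, and those of Itgb5 and Itga4 do not hold them. Of the other members at hand, Itgav also holds them once on each strand, and Itgb1 holds them on 1 strand. The Itga9 entry belongs to a start site inside the gene (chr9:118711442-118711691), includes 35 exonic bases and was left out here. Among 32851 RefSeq promoters cut in the same way, 23.3% hold the letters at least 1 time and 3.54% at least 2 times, overlaps with other motifs not considered. A match is a run of letters and not a measured binding site.

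In microglia, 7 of the 9 subunits were measured well and 2 were nearly absent. Itgb5 stood at 1196, 1261, 1249 and 1102 CPM in replicates 1 to 4, a mean of 1202 ± 72.8 (SD, n = 4). It was the highest member in every library, and on its own made up 56.8% ± 2.52 of the UMIs of all 9 members. The 9 members together held 2114 ± 58.4 CPM, which was 98.8% ± 0.108 of the UMIs of all 27 integrin genes.

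The leukocyte pair came next. Itgb2 stood at 282, 282, 280 and 300 CPM (286 ± 9.26), and Itgam, the alpha chain of complement receptor 3, at 265, 237, 292 and 288 CPM (270 ± 25.4). Their levels could not be ordered, since Itgb2 exceeded Itgam in 3 of 4 libraries and the mean ratio was 1.06.

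The chains that bind matrix were lower. Itgb1 stood at 152, 128, 149 and 177 CPM (152 ± 20.04) and its laminin partner Itga6 at 134, 124, 139 and 118 CPM (129 ± 9.84). Itgav, the partner of Itgb5, stood at 51.9, 51.0, 60.9 and 50.7 CPM (53.6 ± 4.87). Its level was thus far below that of Itgb5 in every library. Itga9, a receptor for tenascin and VCAM-1, stood at 21.6, 22.6, 22.4 and 17.1 CPM (20.9 ± 2.58).

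Itga4 and Itgal were close to the limit of detection in microglia. Itga4 had 4, 14, 3 and 4 UMIs in the 4 libraries (0.572, 1.25, 0.517 and 0.453 CPM). Itgal had 4, 9, 0 and 2 UMIs (0.572, 0.803, 0 and 0.227 CPM), and a count of 0 in replicate 3 allows up to 0.517 CPM at a limit of 3 UMIs. The order Itgb5, Itgam, Itgb1, Itga6, Itgav, Itga9, Itga4 held in all 4 libraries, whereas Itgb2 was below Itgam in 1 library, and Itga4 was above Itgal in 3 libraries and equal to it in replicate 1. The exact permutation test by sign flips over 4 libraries (two-sided) cannot go below p = 0.125, which each of the neighbouring pairs with 1 order in all libraries reached, so these orders rest on the count of libraries.

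**Figure D1:**
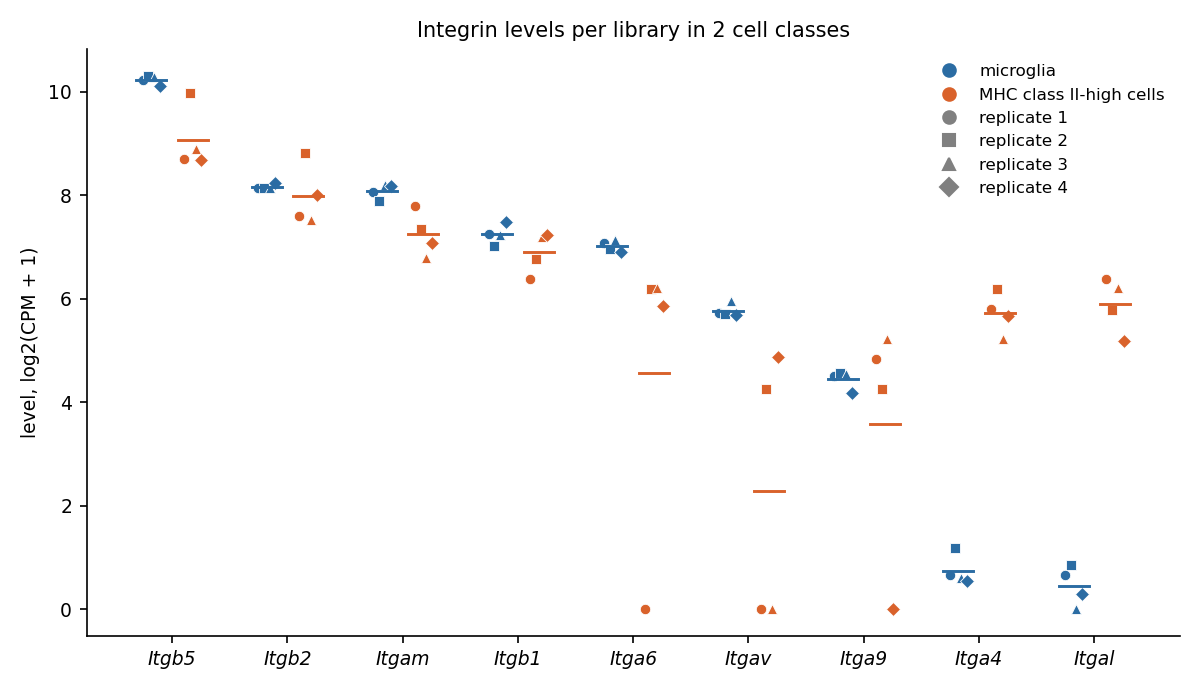
Level of each of the 9 integrins as log2(CPM + 1), on the vertical axis, in the microglia (blue) and MHC class II-high cells (orange) of each library. Points are the 4 libraries by symbol and short lines are means of the log values. Itga4 and Itgal lie near 0 in microglia and between 35.4 and 82.3 CPM in MHC class II-high cells, and points at 0 are sums with no UMI.

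The median spread of these levels over the libraries was slightly above that of all genes. The coefficient of variation ran from 3.24% for Itgb2 to 13.2% for Itgb1 over the 7 measured members. Their median SD on the log2(CPM + 1) scale was 0.12, against 0.10 for all 5812 genes at 20 CPM or more in microglia. The share of those genes with a smaller SD ran from 9.96% for Itgb2 to 90.2% for Itgb1. Itgb1 was highest in replicate 4, at 177 CPM (95% counting interval 169 to 186), and lowest in replicate 2 (122 to 135). Itgb5 was lowest in replicate 4 (1080 to 1124, against lower bounds of 1170 to 1241 in the others). Itgam was lowest in replicate 2 (228 to 246).

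Dixon's range test divides the gap between an end value and its neighbour by the whole range of the 4 libraries. By that test, 1 library stood apart for 3 of the 7 members, against 4.89% of all genes tested. Itgb2 was high in replicate 4, Itgav high in replicate 3 and Itga9 low in replicate 4. The differences were small, and that of Itgb2 was 300 against 280 to 282 CPM. With TMM scaling (a factor per library from the bulk of the genes) the ratio of gap to range fell to 0.649 for Itgb2 and 0.771 for Itgav, and neither passed the test. Replicate 4 is the library with raised immediate early genes, whose part in these values was not tested. Microglia were also split by their immediate early UMIs after thinning to 1000 UMIs, and levels were taken from their full counts. The 647 cells with 5 or more had 1.16 times the Itgb2 level of the 3988 cells with none (counting interval 1.05 to 1.27), but were higher in only 2 of 4 libraries. Itgb5 stood at 0.944 times (0.900 to 0.989) and was lower in 1 of 4 libraries. Replicate 4 gave 515 of the 647 cells but only 477 of the 3988, so both pooled ratios also compare libraries. Within replicate 4, cells with 5 or more stood at 322 CPM for Itgb2 and 1135 CPM for Itgb5. The cells with none stood at 304 and 1114 CPM there.

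**Figure D2:**
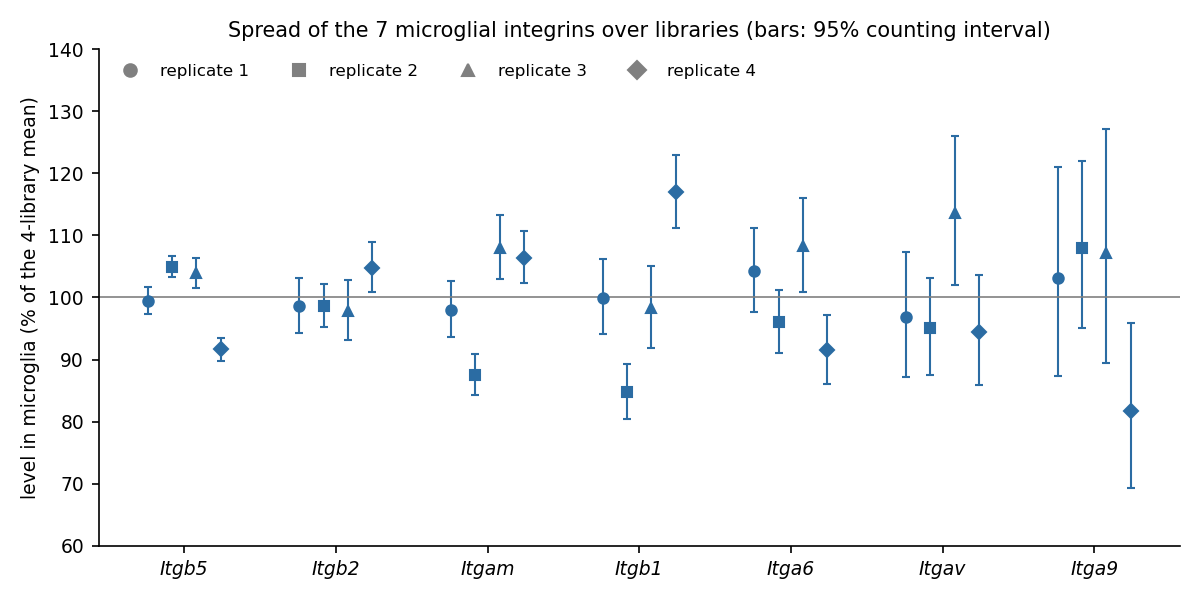
Level of the 7 integrins above 20 CPM in microglia, as a percentage of the mean of the 4 libraries (vertical axis), with exact 95% Poisson intervals as bars and symbols for replicates 1 to 4. Itgb2 varies least, and replicate 4 lies lowest for Itgb5, Itga6, Itgav and Itga9 and highest for Itgb1 and Itgb2.

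Within a library and at 1000 UMIs per cell, microglia varied in these genes about as much as random sampling of UMIs gives. With every cell thinned to that depth, the variance divided by the mean (Fano factor, 1 for random sampling) averaged 0.988 to 1.05 for the 7 measured members. Over all 5812 genes its median was 1.01 (5th to 95th percentile 0.985 to 1.06), so the highest members, Itgb5 and Itgam, lay near the upper end. Itgb5 was detected in 69.1% ± 2.34 of the thinned microglia, where its mean alone predicts 70.1%. Itgam was detected in 23.1% ± 1.87 (predicted 23.5%) and Itgb2 in 24.3% ± 1.33 (predicted 24.4%). No gene reached a mean within-library correlation of 0.1 with any of the 7 members across single microglia. Between pairs of members the mean correlation ran from -0.019 to 0.010 over 21 pairs. At this depth a microglial subset defined by 1 of these integrins was not detectable. At 2000 UMIs per cell the Fano factor averaged 1.09 for Itgb5, 1.08 for Itgam and 0.994 to 1.06 for the other measured members.

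The MHC class II-high cells differed from microglia in 3 of the 9 members. Itgal and Itga4 were higher, Itgb5 was lower and 6 members were not called. The test was edgeR's quasi-likelihood test on UMIs summed per library and class, with the library as a block and Benjamini-Hochberg adjustment over 5555 genes. Over all genes tested 460 were higher (8.28%) and 344 lower (6.19%), 14.5% in either direction. With counts scaled by library totals alone, 410 genes were higher and 617 lower, and the calls of these 3 members held. All 9 passed the filter of 20 CPM averaged over the 8 sums, Itga4 and Itgal only through their level in MHC class II-high cells. The median log2 fold change was -0.55 over the 9 members and -0.16 over all genes. These sums cannot separate fewer transcripts per cell from a smaller share of cells that express the gene.

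Itgal had 3, 3, 2 and 5 UMIs in the MHC class II-high cells of replicates 1 to 4, or 82.3, 53.8, 72.9 and 35.4 CPM. Itga4 had 2, 4, 1 and 7 UMIs, or 54.9, 71.7, 36.5 and 49.5 CPM. Every library was higher in MHC class II-high cells than in microglia for both genes. As 1 UMI was worth 7.07 to 36.5 CPM in those sums, any UMI there put a library above microglia. Microglia reached at most 1.25 CPM for Itga4 and 0.803 CPM for Itgal. With the UMIs of all libraries pooled, the level of Itgal was 109 times that of microglia (13 against 15 UMIs, counting interval 47.7 to 246). That of Itga4 was 70.4 times as high (14 against 25 UMIs, 33.8 to 141). By edgeR the log2 fold change was 7.23 (SE 1.003, adjusted p = 3.23e-11) for Itgal and 6.41 (SE 0.97, adjusted p = 1.53e-09) for Itga4. The filter favoured a call of higher for both, since with so few microglial UMIs they passed it only where MHC class II-high cells had them. With no filter the log2 fold change was 6.97 for Itgal (adjusted p = 1.60e-11) and 6.20 for Itga4 (adjusted p = 1.72e-10).

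Itgb5 stood at 412, 1004, 474 and 410 CPM in MHC class II-high cells, below the microglia of the same library in 4 of 4 libraries. Replicate 2 was high, near its own microglia at 1261 CPM, and the other 3 libraries lay below 480 CPM. In 8 of the 12 MHC class II-high cells of replicate 2 the other markers did not outnumber the microglial ones. Those 8 cells held 49 of its 56 Itgb5 UMIs. The part of this make-up in the level of replicate 2 was not tested. The log2 fold change was -0.98 (SE 0.25, edgeR adjusted p = 0.00114), and the pooled level 0.453 times that of microglia (0.381 to 0.534). The call was lost without replicate 1 (-0.87, adjusted p = 0.0513), with a threshold of 5 in place of 10 MHC class II UMIs (-0.49, adjusted p = 0.0672) and once the deepest 1% of cells were left out (-1.01, adjusted p = 0.122). That last setting left 55 of the 67 MHC class II-high cells.

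The partners of Itgb5 and the laminin receptor chains were not called. Itga6 had 0, 71.7, 72.9 and 56.6 CPM in MHC class II-high cells, a log2 fold change of -1.05 (SE 0.42, edgeR adjusted p = 0.0770). It passed the threshold in 5 of 20 other fits, 1 of them without replicate 2 (-1.33, adjusted p = 0.0437). Itgav had 0, 17.9, 0 and 28.3 CPM, from 5 UMIs in all (-1.27, SE 0.64, adjusted p = 0.202). A count of 0 allows up to 82.3 CPM in replicate 1 and 109 CPM in replicate 3, more than microglia have, so a fall of Itgav was not measurable there. Itga9 rested on 3 UMIs and had 27.4, 17.9, 36.5 and 0 CPM (-0.55, SE 0.93, adjusted p = 0.798).

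The beta chains Itgb2 and Itgb1 were not called. Itgb2 had 192, 448, 182 and 255 CPM in MHC class II-high cells, on both sides of microglia (0.10, SE 0.26, edgeR adjusted p = 0.884), and the sign of its difference turned in 8 of 20 other fits. Itgb1 had 82.3, 108, 146 and 149 CPM, lower than the microglia in 4 of 4 libraries (-0.13, SE 0.33, adjusted p = 0.877). Itgam, on whose protein the cells were sorted, had 220, 161, 109 and 134 CPM, below the microglia of its library in 4 of 4 libraries. Its log2 fold change was -0.65 (SE 0.30, adjusted p = 0.141), and it was called when counts were scaled by library totals alone (-0.83, adjusted p = 0.0197). With the UMIs of both Itgam identifiers summed it was -0.70 (adjusted p = 0.108).

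**Figure D3:**
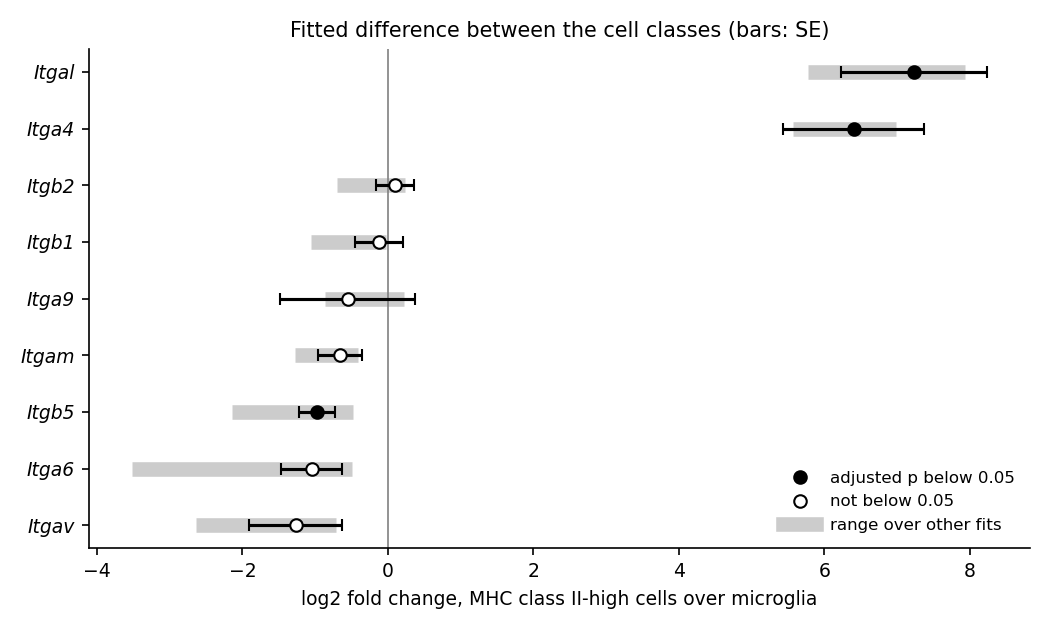
Log2 fold change of each integrin, MHC class II-high cells over microglia (horizontal axis), from edgeR with the library as a block. Points are the fitted values with their SE, filled where the adjusted p was below 0.05, and grey bands give the range over the other fits. Itgal (7.23), Itga4 (6.41) and Itgb5 (-0.98) are filled, and the bands of Itgb2 and Itga9 cross 0.

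The MHC class II-high cells were then split by their markers. In the 34 cells led by border macrophage, monocyte and dendritic markers, Itgb5 stood at 278 CPM (38 UMIs, counting interval 197 to 382), 0.231 times its level in microglia (0.164 to 0.318). In the 33 cells led by microglial markers it stood at 836 CPM (104 UMIs, 683 to 1013), 0.696 times that level (0.568 to 0.843) and lower in 3 of 4 libraries. The cells led by other markers numbered 8, 4, 5 and 17 in replicates 1 to 4, and those led by microglial markers 2, 8, 2 and 21. In replicate 2, Itgb5 stood at 540 CPM in the former and 1145 CPM in the latter. All 13 Itgal UMIs and 12 of the 14 Itga4 UMIs lay in the 34 cells led by other markers. There Itgal had a UMI in 7 of 34 cells (20.6%, exact interval 8.70% to 37.9%) and Itga4 in 9 of 34 (26.5%, 12.9% to 44.4%), with 5 cells carrying both. In the cells led by microglial markers Itgal had a UMI in 0 of 33, which at a limit of 3 cells allows a share of up to 9.09% of such cells with a UMI (upper end of the exact interval 10.6%), and Itga4 in 2 of 33 (6.06%).

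In the comparison of the 2 kinds of MHC class II-high cells, added after these values had been seen, edgeR called no member, with 0.687% of 5096 genes called in either direction. The log2 difference, cells led by other markers over cells led by microglial markers, was 4.85 for Itgal (SE 1.47, adjusted p = 0.0918), 2.50 for Itga4 (SE 1.10, adjusted p = 0.548) and -1.31 for Itgb5 (SE 0.54, adjusted p = 0.419). Against microglia, Itgb5 in the cells led by other markers was lower by edgeR (-2.14, adjusted p = 4.76e-06), and in those led by microglial markers it was not called (-0.66, adjusted p = 0.665). In that fit the Itga4 and Itgal rows fell below the filter.

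The 31 cells of neither class, which had few MHC class II UMIs and more other than microglial markers or too few of either, carried the highest pooled levels of both genes. Itgal stood at 285 CPM there (24 UMIs, 183 to 425) and Itga4 at 238 CPM (20 UMIs, 145 to 367). Itgal had a UMI in 14 of 31 cells (45.2%) and Itga4 in 12 of 31 (38.7%). For background, Itgal had a UMI in 10 of 12904 microglia (0.0775%) and Itga4 in 24 (0.186%), at a median depth of 2429 UMIs against 2479 in the 31 cells. Monocyte markers stood at 1312 to 6223 CPM over the libraries in these cells, led by Plac8, and border macrophage markers at 0 to 8832 CPM. Dendritic markers stood at 388 to 997 CPM, but Napsa gave 84.5% of these UMIs, and Zbtb46 and Xcr1 had none. Microglial markers stood at 1317 to 3818 CPM, so these cells were mixed too. Itgb5 was at 285 CPM (183 to 425), close to its level in the MHC class II-high cells led by other markers. Of the 15 Itgal UMIs in microglia, 6 came from 1 cell.

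**Figure D4:**
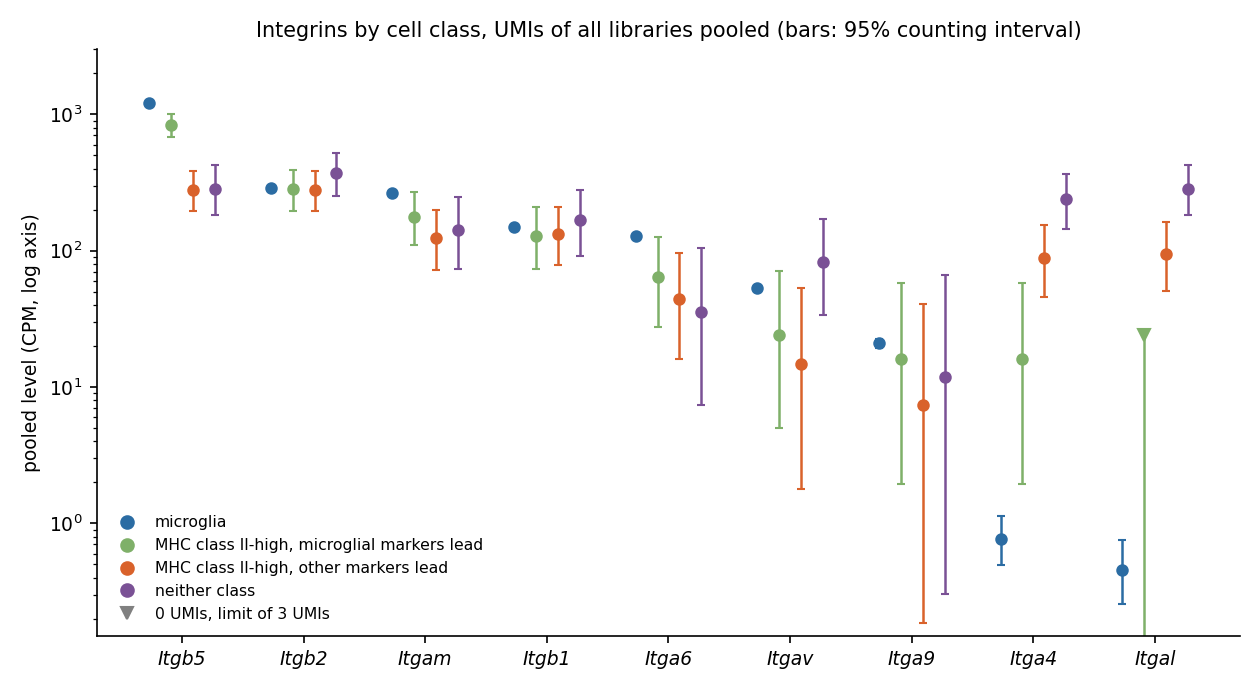
Pooled level of each integrin (CPM, log axis) in microglia, in the 2 kinds of MHC class II-high cells and in the cells of neither class, with exact 95% Poisson intervals that cover counting error only. A triangle marks 0 UMIs at the limit of 3 UMIs. The pooled level of Itgb5 is lower, at 278 CPM, in the cells led by other markers, while the ratios of Itgb2 and Itgb1 to microglia have intervals that include 1 in each of the other kinds of cells.

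With every cell thinned to 1000 UMIs, so that depth is equal, the shares of cells with a UMI differed in the direction of the fold change for 7 of the 9 members, and in the opposite direction for Itgb2 and Itga9. Itgb5 was found in 68.0%, 71.2%, 70.9% and 66.3% of microglia and in 40.0%, 66.7%, 28.6% and 37.8% of MHC class II-high cells, lower in 4 of 4 libraries. Itgam was found in 23.1% ± 1.87 of microglia and 16.1% ± 2.92 of MHC class II-high cells and Itga6 in 11.9% ± 1.06 and 0.676% ± 1.35, both lower in 4 of 4 libraries. Itga4 was found in 0.0805% ± 0.0578 of microglia and 9.84% ± 9.96 of MHC class II-high cells, and Itgal in 0.0277% ± 0.0387 and 7.01% ± 5.96, each higher in 3 of 4 libraries. With no thinning the shares were 0.178% and 18.1% for Itga4 and 0.0714% and 12.2% for Itgal, each higher in 4 of 4 libraries. In classes this small, 1 MHC class II-high cell with a UMI was enough to put a library above microglia for either gene. The exact permutation p was 0.125 for Itgb5, Itgam and Itga6, the smallest that 4 pairs allow, and 0.25 for Itga4 and Itgal. These shares rest on 7 to 37 MHC class II-high cells per library and on 1 random draw. With another draw the mean share of Itgal in MHC class II-high cells was 0.676%, and Itgal and Itga6 were each higher than in microglia in 1 of 4 libraries.

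**Figure D5:**
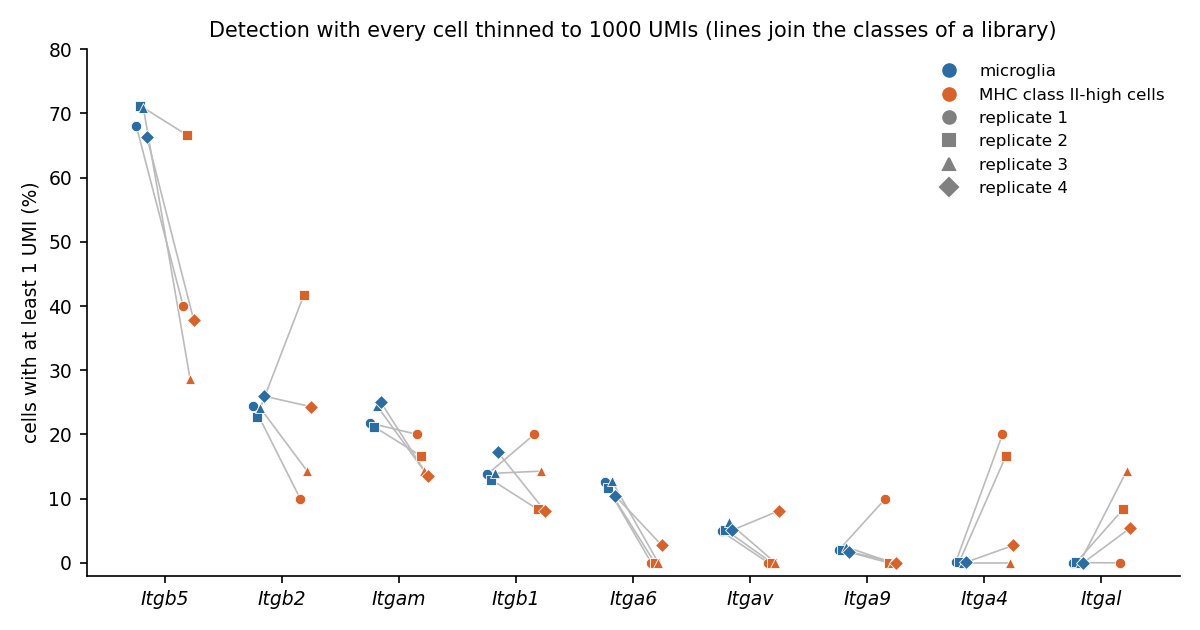
Percentage of cells with at least 1 UMI of each integrin (vertical axis) after thinning every cell to 1000 UMIs, in microglia (blue) and MHC class II-high cells (orange). Lines join the 2 classes of a library, and Itgb5 is lower in the MHC class II-high cells of 4 of 4 libraries while Itga4 and Itgal are higher in 3 of 4.

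The partner chains of Itgb2 were set against Itgb2 itself. The UMIs of Itgam, Itgal, Itgax and Itgad together were 0.954 ± 0.0841 times those of Itgb2 in microglia (n = 4). In MHC class II-high cells they were 1.07 ± 0.504 times those of Itgb2 (1.71, 0.560, 1.2 and 0.806), higher than microglia in 2 of 4 libraries, and the exact permutation p was 1. The ratios in MHC class II-high cells rested on 12, 14, 6 and 29 alpha UMIs against 7, 25, 5 and 36 of Itgb2. With so few UMIs they cannot show that the ratio was unchanged. Itgal made up 0.157% of the alpha UMIs in microglia and, from 13 Itgal UMIs, 24.3% in MHC class II-high cells on average. Itgax, a marker of dendritic cells and of activated microglia, had 1.86, 1.87, 2.93 and 1.59 CPM in microglia and 27.4, 35.9, 36.5 and 35.4 CPM in MHC class II-high cells. The pooled ratio was 17.4 (9 against 65 UMIs, 7.62 to 35.1). It did not pass the filter of 20 CPM. Unlike Itgal, its UMIs lay in both kinds of MHC class II-high cells (3 UMIs in those led by other markers and 6 in those led by microglial markers).

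Of the 18 other integrin subunits, 1 passed the filter. Itgb7, which pairs with Itga4 in a receptor for MAdCAM-1, had 0.430 ± 0.296 CPM in microglia. In MHC class II-high cells it had 54.9, 0, 109 and 92.0 CPM (log2 fold change 7.19, SE 1.06, edgeR adjusted p = 5.40e-10). It passed the filter only through these cells, which favoured a call of higher. It had a UMI in 9 of the 34 cells led by other markers and in 1 of the 33 led by microglial markers. In the cells of neither class, where Itga4 was highest, it had a UMI in 2 of 31.

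Genes that switch integrins on, that signal from them and that encode their ligands were counted against the 14.5% of all genes called in either direction. Among the genes called higher, Flna, Fgr and Spp1 were below 20 CPM in microglia and passed the filter only through MHC class II-high cells, which favoured that call. Of 15 activation genes, 11 passed the filter, 1 was higher, 1 lower and 9 were not called. Flna, an actin cross-linker that competes with talin for beta tails, was higher (9.52 ± 1.93 against 81.9 ± 37.7 CPM, log2 fold change 3.18, edgeR adjusted p = 3.51e-06). Apbb1ip, which encodes RIAM and brings talin to integrins, was lower (476 ± 25.9 against 252 ± 94.2 CPM, -0.84, adjusted p = 0.0171). Tln1 and Fermt3, the talin and the kindlin of leukocytes, are named outside the rule, after their values had been seen, and were not called (0.52 and -0.43, adjusted p = 0.262 and 0.432).

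Of 17 genes of adhesion signalling, 11 passed the filter, 2 were higher and 1 lower, beside the same 14.5% of all genes. Fgr, a Src-family kinase of myeloid cells, was higher (2.50 ± 0.977 against 57.0 ± 20.8 CPM, log2 fold change 4.58, edgeR adjusted p = 2.87e-06). Zyx, the focal adhesion protein zyxin, was also higher (42.4 ± 2.75 against 141 ± 88.2 CPM, 1.55, adjusted p = 0.00108). Parvg, the parvin of blood cells, was lower (101 ± 11.1 against 34.1 ± 29.5 CPM, -1.38, adjusted p = 0.0385).

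Of 18 ligand genes, 7 passed the filter, 1 was higher and 2 lower, beside the same 14.5%. Spp1, which encodes osteopontin, had 0, 377, 0 and 14.1 CPM in MHC class II-high cells, so its call (log2 fold change 5.76, edgeR adjusted p = 2.46e-06) rested on replicate 2. Jam2 and F11r, junctional adhesion molecules that bind leukocyte integrins, were lower. Jam2 stood at 86.6 ± 4.26 CPM in microglia and 20.3 ± 25.8 CPM in MHC class II-high cells (-2.25, adjusted p = 0.00386), and F11r at 427 ± 85.6 and 146 ± 90.2 CPM (-1.08, adjusted p = 0.00189).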

How the data were processed

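The deposited values were UMI counts per gene and cell, 1 matrix per library, which the authors made with 10x 3′ version 2 kits and, per the labels, Cell Ranger 2.2.0 on mm10 (GRCm38). Cells had been called upstream and no doublets were removed here. The members and lists were chosen with earlier results of these data known. Replicates 1 to 4 follow accession order and only name libraries (total counts 5867333 to 11275195). Counts were summed per library and class, scaled to CPM and tested with edgeR 4.0.16 (TMM, quasi-likelihood, library as block since both sums come from 1 mouse, mean of at least 20 CPM, adjusted p below 0.05). Genes that define the classes were left out of all counts of calls. DESeq2 1.42.0 was an alternative. Dixon's test used log2(CPM + 1). Intervals are exact Poisson or Clopper-Pearson at 95% and, like the limit of 3 UMIs for a count of 0, cover counting error only. By name the text gives all members, the 3 largest called changes of each list and Itgax. Correlated genes needed a mean r of at least 0.1. On simulated counts (5668 genes) the edgeR step called 98% of genes raised 4-fold, 45.2% of genes lowered to 0.25-fold, 14% of those raised 2-fold, 14% of those lowered to 0.5-fold and 0.073% of unchanged genes. For genes at 200 CPM or more in microglia these shares were 100%, 100%, 36.4%, 40% and 0.297%. All simulated sums were drawn from the microglial mean with 1 dispersion and no difference between libraries, so these rates may not hold for the real sums. Replicate microglia sums differed beyond sampling noise in all pairs of libraries (chi-square per degree of freedom 3.86 to 7.93).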

Additional observations from a re-analysis of the deposited data

Results flagged for a closer look

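Dixon's range test set 1 library apart in 9 of the per-library values. Those checked were the microglial levels of the 7 measured members and 35 other values. Chance flags about 1 in 20 groups, and the causes were not tested. In microglia these were Itgb2 (replicate 4 high, ratio of gap to range 0.884), Itgav (replicate 3 high, 0.865) and Itga9 (replicate 4 low, 0.839).

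In MHC class II-high cells the level of the 9 members together was high in replicate 2 (1955 CPM against 1070 to 1130, ratio 0.933), as was Itgb5 (0.839), and Itga6 was low in replicate 1, at 0 UMIs (0.942). In the thinned cells Itgav and Itga6 had a UMI in replicate 4 alone, the library with 37 such cells, and Itga9 in replicate 1 alone, in 1 of 10 cells, so that the ratio was 1 for each.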

How the results depend on the processing

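Itga4 and Itgal were higher in each of the 17 other fits in which they had a value (log2 fold change 5.57 to 6.99 and 5.78 to 7.94). All of these but the fit with no filter used the 20 CPM filter, which favoured that call. Itga4 fell below the filter at 50 CPM, at 5 MHC class II UMIs and in cells led by microglial markers, and Itgal at 50 CPM, in the latter cells and without the 1% deepest cells. Itgb5 was not called at 5 UMIs (-0.49), in cells led by microglial markers (-0.66) or without the deepest cells (-1.01), and ran from -1.45 to -0.87 with 1 library left out. Itga6 was called with library totals (-1.22), at 20 UMIs (-1.17), with cells thinned (-3.52) and with no replicate block (-1.06), and ran from -1.35 to -0.77 with 1 library left out. Itgam was called with library totals (-0.83). Itgb2 turned negative with library totals (-0.055), no filter (-0.12), 20 UMIs (-0.15), cells led by other markers (-0.14), cells led by microglial markers (-0.18), no deepest cells (-0.14) and thinning (-0.70), and ran from -0.36 to 0.22 with 1 library left out. Itga9 ran from -0.85 to 0.22 with 1 library left out, and was positive without replicate 4.

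The number of genes higher was 64 in cells led by microglial markers, 194 without the deepest cells and 102 with thinning. The number lower was 198 by DESeq2, 617 with library totals, 183 at 5 UMIs, 524 and 8 in cells led by other and by microglial markers, and 140 without the deepest cells. Leaving out 1 library gave 294 to 422 higher and 195 to 445 lower, fewest without replicate 4. Without the replicate block, pairing by mouse ignored, 536 genes were higher and 449 lower. The cause of these shifts was not tested. The median of all genes was -0.16 with TMM and -0.35 with library totals.

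In Dixon's test Itgb2 was no longer apart with at least 1000 genes per cell (0.694), TMM (0.649) or DESeq2 size factors (0.628), Itgav with TMM (0.771) or size factors (0.757), and Itga9 with all cells below 10 MHC class II UMIs (0.824) or at least 1000 genes (0.812). Itga4 came to stand apart with a pseudocount of 10 (0.846). With all cells below 10 MHC class II UMIs, mean Itga4 was 1.43 CPM and mean Itgal 1.16 CPM. In shares of thinned cells (percentage points, MHC class II-high minus microglia), leaving out 1 library gave -8.64 to 2.50 for Itgb2, -2.06 to 1.45 for Itga9 and -4.47 to 0.623 for Itgb1. Itga9 was -1.69 at 2000 UMIs and Itgb1 5.44 with no thinning. The log2 difference in the ratio of alpha to Itgb2 UMIs ran from -0.22 to 0.26. In the MHC class II-high sums 1 UMI is worth up to 36.5 CPM, which limits what they can show.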

Other observations

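Microglia with UMIs of inducible genes were also examined, as classes cut from a few genes after the data had been seen, with no test. In the 46 cells with 5 or more UMIs of the chemokine genes Ccl3 and Ccl4, pooled Itgb5 was 0.684 times that of all microglia (counting interval 0.570 to 0.815) and lower in 4 of 4 libraries. In the 19 cells with 5 or more UMIs of Lpl, Cst7, Lgals3, Spp1 and Gpnmb, Itgb5 was 0.733 times (0.574 to 0.924) and lower in 4 of 4 libraries. Itgax stood at 110 CPM in these 19 cells, 55.6 times its level in all microglia (24.4 to 112). Its 9 UMIs fell as 2, 2, 0 and 5 in replicates 1 to 4, higher than all microglia in 3 of 4 libraries. In the 47 cells with 5 or more UMIs of interferon-responsive genes, Itgb5 was 0.912 times (0.770 to 1.07) and Itgam 1.30 times (0.9499 to 1.73) the level of all microglia, and both intervals include 1. None of these 3 kinds of cells had an Itgal UMI. The exact intervals of these counts of 0 reach 24.1, 45.2 and 27.7 CPM, in the order given. All microglia had 0.457 CPM, so the counts cannot show a lower level.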
